A study of Homo sapiens with 56 samples.

Results

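Tropomyosin, actin, beta-thymosin and non-muscle myosin light chain genes were followed across 7 human colorectal cancer cell lines. The 10 genes were TPM1, TPM2, TPM3, TPM4, ACTB, ACTG1, TMSB4X, TMSB10, MYL9 and MYL12A, out of 17536 genes measured in either count table, and all 10 were present in both tables. They were chosen with their measured levels and fold changes in these same libraries in view, so those values are given as a description and no test of them is offered as support.

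The study treated the established lines HCT116, LoVo, DLD1, SW948, SW1417, SKCO1 and HT29 with 10 mM 2-methylisocitrate (2-MiCit, a metabolite of the methylcitrate cycle of bacteria) or with water, its vehicle. Each of the 14 groups had 4 libraries, 56 in all. The labels call every sample epithelial and wild-type. How long the cells were treated is not stated in the labels. Whether the 4 libraries of a group stem from separate cultures is not stated either. A p-value here therefore weighs an effect against library-to-library spread alone, and that spread may be technical. Each line stands for the tumour it was grown from and not for patients at large.

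Actin is the protein that polymerises into the thin filaments of the cell cortex, stress fibres and microvilli. Beta-thymosins hold actin monomers in reserve, tropomyosins wind along the finished filament and decide which other proteins may bind it, and non-muscle myosin II pulls on the filaments once its regulatory light chain is phosphorylated. In intestinal epithelium this machinery supports the brush border, the belt of actin beneath cell junctions and migration.

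Near-identical coding sequences matter for reading the counts, because short reads from one gene can match its relative. ACTB (chromosome 7, 5527147 to 5563784, minus strand) and ACTG1 (chromosome 17, 81509971 to 81523847, minus strand; GENCODE 29 on GRCh38) encode the cytoplasmic beta and gamma actins, and 1029 of their 1128 coding bases are identical (91.2%). Their first 60 coding bases are shown, with the 10 bases that differ in capitals.
ACTB: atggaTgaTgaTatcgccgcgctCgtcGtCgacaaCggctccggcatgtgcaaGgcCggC
ACTG1: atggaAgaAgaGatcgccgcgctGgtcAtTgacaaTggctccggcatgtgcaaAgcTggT
TMSB4X (chromosome X, 12975108 to 12977227, plus strand) and TMSB10 (chromosome 2, 84905625 to 84906675, plus strand) encode thymosins beta-4 and beta-10. Both coding sequences are 135 bases long, short enough to show whole, and the 37 bases that differ are in capitals.
TMSB4X: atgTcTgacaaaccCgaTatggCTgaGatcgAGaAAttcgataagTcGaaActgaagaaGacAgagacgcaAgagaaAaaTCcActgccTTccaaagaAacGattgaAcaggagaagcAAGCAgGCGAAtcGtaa
TMSB10: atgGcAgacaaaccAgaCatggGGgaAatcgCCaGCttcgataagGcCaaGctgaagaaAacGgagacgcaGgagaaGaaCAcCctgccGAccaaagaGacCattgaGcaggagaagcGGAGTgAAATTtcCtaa
The thymosin pair is 72.6% identical, and MYL12A is 92% identical to its relative MYL12B. Values of ACTB, ACTG1 and MYL12A are therefore uncertain to the extent that reads were shared out between copies. Processed pseudogenes counted under their own identifiers held at most 3.56% of the TPM3 count, 1.65% of the TMSB4X count, 0.0705% of the ACTB count and 0.0585% of the ACTG1 count in any library.

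Library totals ran from 13837856 to 19447718 counts in HCT116, DLD1, LoVo and SW948 and from 29072881 to 45432695 counts in HT29, SKCO1 and SW1417, so the last 3 lines were measured with less counting error. EPCAM, KRT8, KRT18 and KRT19, markers of epithelium, were present in all 7 lines. VIL1 (villin) was at most 0.342 CPM (counts scaled to the library total) in HCT116 and CDX2 at most 3.64 CPM in HT29, so these markers were near absent there. Summed over the fibroblast markers measured, the level was at most 22.7 CPM in any library, and none of those markers was called in any line. In bulk RNA, fewer cells of a type and less RNA per cell cannot be told apart.

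A few libraries stood apart by transcript length. The slope of log2 CPM on log2 transcript length, relative to the other libraries of the line, was -0.29 per doubling in DLD1 control replicate 1, -0.23 in SW948 2-MiCit replicate 2 and -0.12 in LoVo control replicate 4, which means that short transcripts were over-represented in them. The slopes of all other libraries lay between -0.11 and 0.14. The thymosins and MYL12A have short transcripts (496 to 947 bases), and TPM4 a long one (2473 bases). Fold changes of the 10 genes printed for DLD1, LoVo and SW948 are also given without these libraries, each left out of its own line.

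The lines differed far more in the level of some of these genes than 2-MiCit moved any of them. Levels that are compared between genes or lines are length-scaled CPM (counts per kilobase of transcript, then scaled like CPM) in control libraries. The first 4 lines and the last 3 were normalized in separate tables and were not tested against each other.

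**Figure D1:**
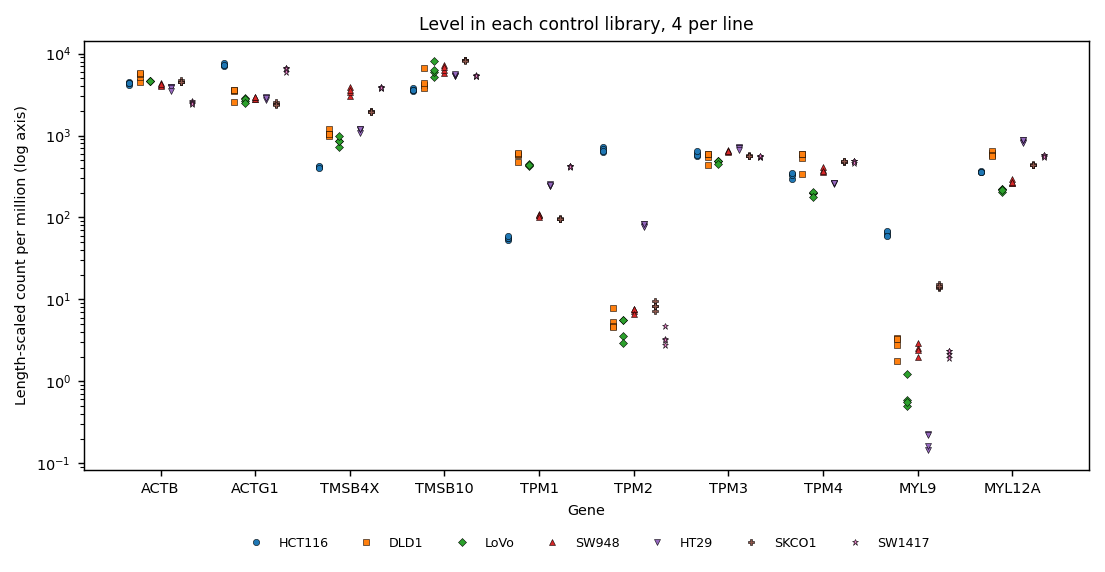
Length-scaled CPM (log axis) of the 10 genes in each of the 4 control libraries of each of the 7 lines, 1 symbol per library. MYL9 and TPM2 spread over more than 2 decades between lines, while the line means of TPM3 span 479 to 700.

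MYL9, which encodes a myosin regulatory light chain best known from smooth muscle, had the widest range. It averaged 63.6 in HCT116 and 0.189 in HT29, a ratio of 337. The HT29 control libraries held only 0.153 to 0.242 CPM of MYL9, near the floor, so the size of this ratio is imprecise. TPM2, the beta-tropomyosin gene, averaged 671 in HCT116 and 3.51 in SW1417, a ratio of 191. For both genes HCT116 ranked first, and the next line was SKCO1 for MYL9 and HT29 for TPM2. Beyond HT29 the neighbouring lines in the order of TPM2 (SKCO1, SW948, DLD1, LoVo and SW1417) overlapped in their control libraries, so their order is not resolved.

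HCT116 ranked last for TPM1 and TMSB4X. TPM1 ranged from 56.2 in HCT116 to 566 in DLD1 (10.1 times), and of the neighbours in its order LoVo and SW1417 overlapped. TMSB4X ranged from 413 in HCT116 to 3881 in SW1417 (9.41 times), and SW1417 overlapped SW948, HT29 overlapped DLD1, and DLD1 overlapped LoVo. MYL12A ranged from 217 in LoVo to 847 in HT29 (3.9 times) with an overlap between DLD1 and SW1417 alone.

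The other 5 genes were abundant everywhere. ACTG1 was highest in HCT116 (7293) and SW1417, and lowest in SKCO1 (2436). ACTB was highest in DLD1 (5283) and lowest in SW1417 (2532). TMSB10 lay between 3661 in HCT116 and 8259 in SKCO1, TPM4 between 196 in LoVo and 514 in DLD1, and TPM3 between 479 in LoVo and 700 in HT29. TPM3 had the narrowest range of the 10 genes (1.46 times), and only HT29 stood clear of its neighbour in the order.

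As a share of the summed level of the 4 tropomyosin genes, TPM2 made up 39.5% ± 3.33 with 2-MiCit and 40.5% ± 2.69 in control HCT116 (SD, n = 4), against a mean control share of 0.241% in SW1417 to 6.25% in HT29 among the other lines. TPM3 had its highest control shares in SW948 (57.0% ± 1.19), HT29 (54.4% ± 1.19) and SKCO1 (49.2% ± 0.788). LoVo was divided mainly between TPM1 (41.8% ± 0.18 with 2-MiCit and 39.2% ± 1.25 in control) and TPM3 (39.1% ± 0.425 with 2-MiCit and 42.9% ± 0.825 in control). Which actin gene was the more abundant also depended on the line: ACTB held 65.2% ± 0.215 of the summed actin level in control SKCO1 but 37.3% ± 0.649 in control HCT116 and 28.2% ± 0.557 in control SW1417. On this length-scaled level TMSB10 was above TMSB4X in every line. It held 58.0% of the summed thymosin level in control SW1417 and 89.9% in control HCT116. In CPM the order was reversed in control SW1417, with means of 1560 for TMSB4X and 1530 for TMSB10. All these shares depend on the transcript length used, which is a median over the transcripts of a gene. Transcripts ran from 495 to 1702 bases for TMSB4X and from 485 to 3957 bases for TPM1.

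**Figure D2:**
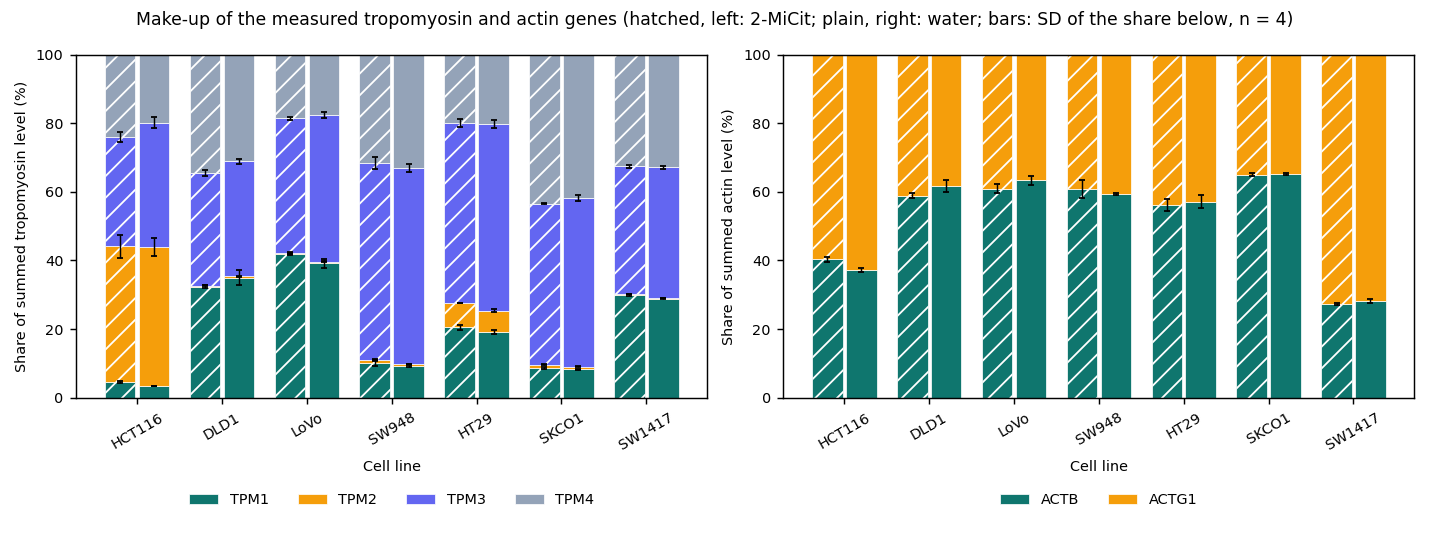
Share (%) of the summed length-scaled level held by each tropomyosin gene (left) and each cytoplasmic actin gene (right) in the 7 lines; hatched bars are 2-MiCit and plain bars control, means of 4 libraries, with error bars giving the SD of the share below them. TPM2 is a large part of the total in HCT116, and ACTG1 exceeds ACTB in HCT116 and SW1417.

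2-MiCit was compared with water within each line by edgeR's quasi-likelihood test over all genes tested, and a gene was called where the p adjusted by Benjamini-Hochberg was below 0.05. In HCT116, 5 of the 10 genes were called higher, where 19% of all genes were, and 2 were called lower, where 18% of all genes were. In the other lines no gene of the set was called higher. The number called lower was 0 of 10 in DLD1 (0% of all genes; called higher 0.148%), 1 of 10 in LoVo (0.702%; higher 1.59%), 0 of 10 in SW948 (0%; higher 0%), 4 of 9 in HT29 (3.02%; higher 4.65%), 4 of 10 in SKCO1 (10.8%; higher 8.1%) and 6 of 10 in SW1417 (4.05%; higher 2.94%). Since the genes were picked on these values, the counts say nothing beyond the choice.

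Over the 69 pairs of gene and line that were tested, 5 were called higher, 17 lower and 47 were not called. The called changes were small: 1.12 to 1.74 times higher and 1.06 to 1.23 times lower. The median log2 fold change of the 10 genes was 0.07 for HCT116 and 0.02 for SW948. It was below 0 elsewhere, at -0.19 for DLD1, -0.13 for HT29, -0.12 for SW1417, -0.11 for LoVo and -0.07 for SKCO1, beside a median over all genes between -0.002 and 0.027. The SW948 median turned to -0.021 without 2-MiCit replicate 2, and without the library that stands apart the median was -0.103 in DLD1 and -0.045 in LoVo. Once the transcript length trend was removed, the median was -0.004 in DLD1, -0.063 in LoVo and -0.087 in SW948.

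For the lines with no call, at an unadjusted p below 0.05 there were 2 genes of the set in DLD1, both lower (TPM1 and ACTB, chosen here after their values were seen), and 0 in SW948. DESeq2 called 1 in DLD1 (TPM1) and 0 in SW948, and 1 edgeR fit over all lines of the table called the same 2 in DLD1 and 0 in SW948. Over all genes, DLD1 had 1227 higher and 1171 lower of 13551 at an unadjusted p below 0.05. DESeq2 called 345 higher and 142 lower there, and the fit over all lines called 729 and 621 of 15800. Without DLD1 control replicate 1, or without SW948 2-MiCit replicate 2, the edgeR count of the set stayed at 0 in the line concerned. Over all genes, SW948 had 479 higher and 409 lower at an unadjusted p below 0.05 and 0 calls by either tool. No gene of the set was called higher in LoVo, HT29, SKCO1 or SW1417 by DESeq2 either, and at an unadjusted p below 0.05 the number higher was 1 in HT29 (TPM2) and 0 in the other 3.

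**Figure D3:**
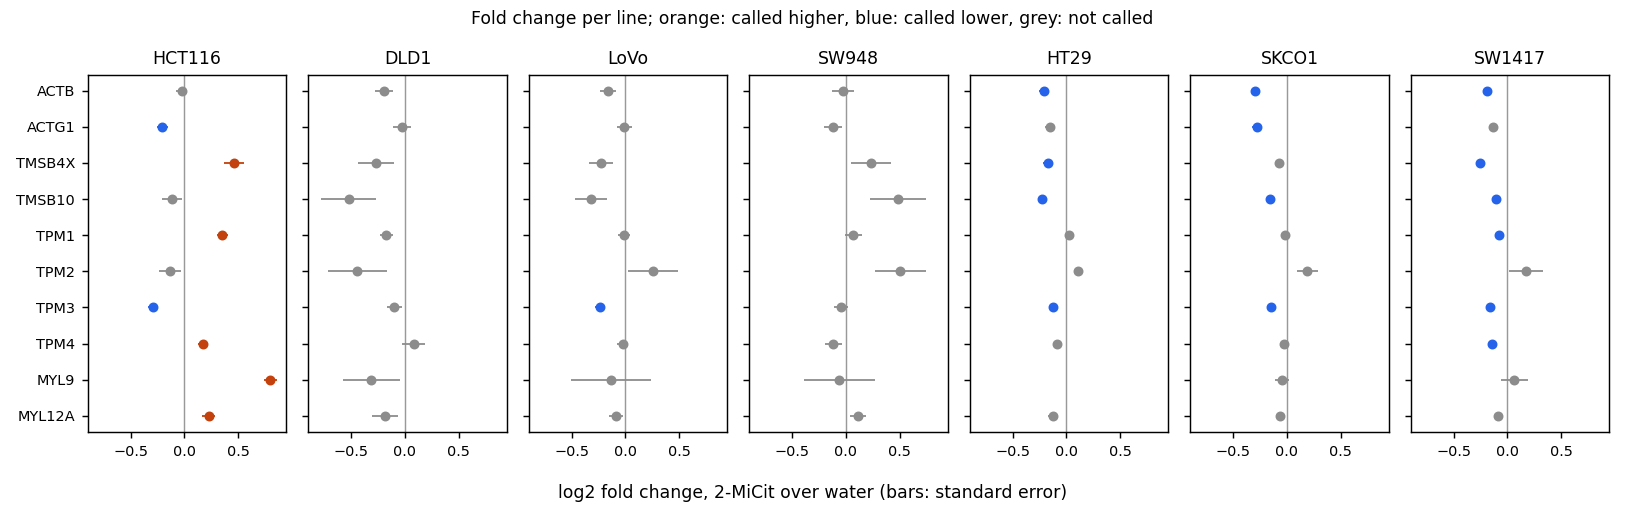
Log2 fold change (2-MiCit over water) with its standard error for each gene (rows) in each line (panels). Orange points were called higher, blue points lower and grey points were not called; MYL9 was not tested in HT29. Orange points are present in HCT116 alone, up to 0.80 for MYL9, and TPM3 is below 0 in every panel.

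Of the actins, ACTB had a log2 fold change below 0 in all 7 lines and was called lower in HT29, SKCO1 and SW1417. In SKCO1, ACTB had 3289, 3466, 3773 and 3625 CPM with 2-MiCit, against 4348, 4261, 4604 and 4263 CPM in control (replicates 1 to 4). Every 2-MiCit library was below every control library, and the log2 fold change was -0.30 ± 0.039 (SE). In SW1417, ACTB had 2263, 2390, 2298 and 2376 CPM with 2-MiCit, against 2738, 2741, 2602 and 2494 CPM in control, again with no overlap and a log2 fold change of -0.19 ± 0.0285. In HT29 the values were 3152, 3333, 3080 and 3451 CPM with 2-MiCit, against 3873, 3967, 3821 and 3429 CPM in control. The groups overlapped in HT29, where control replicate 4 was the low one, and the log2 fold change was -0.21 ± 0.050. That call was lost without 2-MiCit replicate 1 or 3 or control replicate 1, 2 or 3, each left out alone, with log2 fold changes of -0.20 to -0.18, and with the authors' own scaling. DLD1 (-0.19 ± 0.086) and LoVo (-0.16 ± 0.072) had non-overlapping groups for ACTB and no call in the fits per line. It was called lower in DLD1 by 1 edgeR fit over all lines of the table and in LoVo by DESeq2. HCT116 (-0.026 ± 0.051) and SW948 (-0.030 ± 0.10) lay close to 0, and the SW948 value turned to 0.0025 without 2-MiCit replicate 1 and to 9e-04 without control replicate 3. Without the libraries that stand apart, ACTB was at -0.17 in DLD1, -0.13 in LoVo and -0.097 in SW948.

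ACTG1 was called lower in HCT116 and SKCO1. In HCT116, where it is the more abundant actin, it had 6853, 6979, 7002 and 6384 CPM with 2-MiCit, against 7975, 8075, 7581 and 7389 CPM in control. The groups did not overlap and the log2 fold change was -0.21 ± 0.052. In SKCO1 it had 1870, 2044, 2213 and 2140 CPM with 2-MiCit, against 2493, 2494, 2645 and 2456 CPM in control, with a log2 fold change of -0.28 ± 0.043. The uncalled lines ranged from -0.15 ± 0.049 in HT29 and -0.13 ± 0.038 in SW1417 to -0.024 ± 0.084 in DLD1 and -0.011 ± 0.068 in LoVo. The direction in DLD1 and LoVo depended on the processing, with 0.034 and 0.0155 once the length trend was removed and -0.051 and -0.016 without the library that stands apart. Mean CPM of ACTG1 in LoVo was 3072 with 2-MiCit and 3067 in control. ACTG1 was called lower by DESeq2 in both HT29 and SW1417. It was also called lower in HT29 with the replicate number as a block, with 1 fit over all lines of the table and without 2-MiCit replicate 4 (-0.19), and in SW1417 without control replicate 4 (-0.17). In HCT116 the ACTB share of the summed actin level was 40.3% ± 0.766 with 2-MiCit and 37.3% ± 0.649 in control (SD, n = 4, no overlap).

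**Figure D4:**
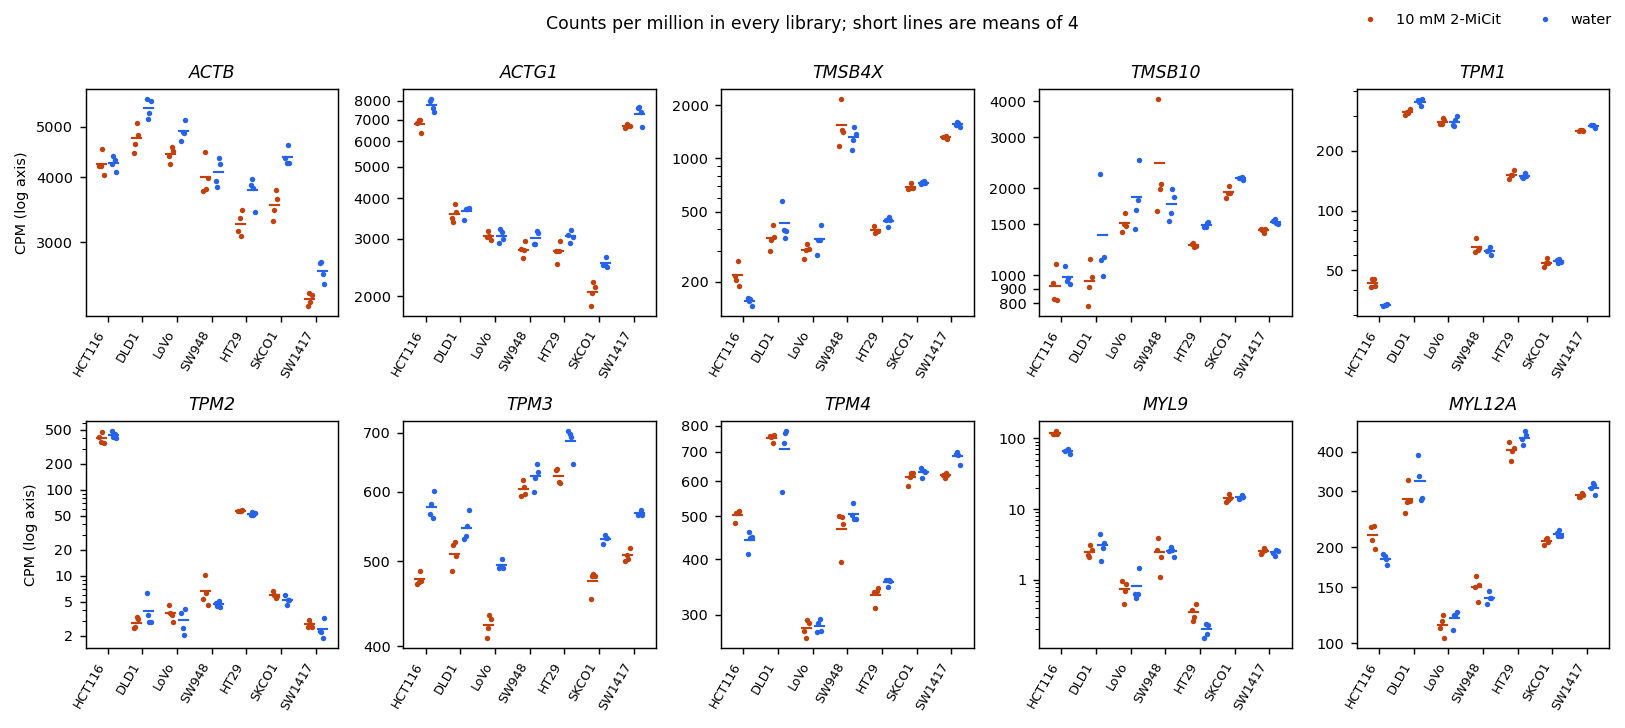
CPM (log axes, with a separate range for each gene) in all 56 libraries, with 2-MiCit (orange) left of control (blue) in each line and short lines at the means of 4. The HCT116 groups separate upward for MYL9, TPM1, TMSB4X, TPM4 and MYL12A and downward for TPM3 and ACTG1, and single high libraries are seen for TMSB10 in DLD1 control and SW948 2-MiCit.

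The thymosin genes took different courses in HCT116. TMSB4X had 215, 204, 264 and 189 CPM there with 2-MiCit, against 162, 155, 161 and 147 CPM in control. All 4 treated libraries were above all 4 controls, with replicate 3 the highest, and the log2 fold change was 0.46 ± 0.092 (1.38-fold). TMSB10 in HCT116 had 938, 829, 1096 and 823 CPM with 2-MiCit, against 1074, 952, 981 and 936 CPM in control. Those groups overlapped and TMSB10 was not called (-0.12 ± 0.092), although it was called lower without 2-MiCit replicate 3 (-0.22). With the length trend removed TMSB10 was at 0.013 and not called, so its direction depended on the processing. With that step TMSB4X was at 0.57 and still called higher. The mean length slope in HCT116 was 0.035 with 2-MiCit and -0.035 in control. The TMSB4X share of the summed thymosin level was 14.4% ± 0.440 with 2-MiCit and 10.1% ± 0.36 in control HCT116 (SD, n = 4).

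Outside HCT116 the thymosin calls were all lower, and all lay in the 3 deeper lines. TMSB4X in SW1417 had 1317, 1321, 1334 and 1289 CPM with 2-MiCit, against 1545, 1602, 1586 and 1507 CPM in control (log2 fold change -0.25 ± 0.022). TMSB10 in HT29 had 1285, 1293, 1255 and 1264 CPM with 2-MiCit, against 1472, 1466, 1517 and 1530 CPM in control (-0.23 ± 0.030). In both of these comparisons the groups stood clear of each other. TMSB10 was also called lower in SKCO1 (-0.15 ± 0.028) and SW1417 (-0.10 ± 0.020). The SW1417 call was lost with the authors' own scaling (-0.10). TMSB4X was called lower in HT29 (-0.17 ± 0.044) with overlapping groups, and this call was lost without 2-MiCit replicate 2, 3 or 4 or control replicate 1, 3 or 4, each left out alone (-0.17 to -0.15), with the length trend removed (-0.14) and with the authors' own scaling. In SKCO1, TMSB4X was not called (-0.071 ± 0.027) but was called lower by DESeq2 (-0.070), without 2-MiCit replicate 3 (-0.096) and with the replicate number as a block (-0.071).

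In DLD1, LoVo and SW948 the most extreme thymosin values were in the libraries that stand apart by transcript length. TMSB10 had 786, 910, 1141 and 985 CPM with 2-MiCit in DLD1, against 2232, 1126, 995 and 1153 CPM in control, where the first is the library with a slope of -0.29. In SW948 it had 1675, 4058, 1993 and 2064 CPM with 2-MiCit, against 1537, 1649, 1988 and 1866 CPM in control, where the highest is the library with a slope of -0.23. In LoVo it had 1414, 1502, 1646 and 1479 CPM with 2-MiCit, against 1446, 1682, 1822 and 2514 CPM in control, where the highest is the library with a slope of -0.12. None of these was called. With the length trend removed, the log2 fold change of TMSB10 was -0.14 in DLD1, -0.18 in LoVo and 0.17 in SW948, against -0.53 ± 0.25, -0.32 ± 0.15 and 0.48 ± 0.26 in the same lines without that step. With the library that stands apart left out, it was -0.19 in DLD1, -0.13 in LoVo and 0.11 in SW948, and that of TMSB4X was -0.095 in DLD1, -0.11 in LoVo and 0.025 in SW948, against -0.27 ± 0.16, -0.225 ± 0.11 and 0.24 ± 0.19 with all libraries. The length step gave TMSB4X values of 0.0215, -0.11 and 0.0044 in the same order of lines, so the sign turned in DLD1.

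Of the tropomyosins, TPM3 was below 0 in all 7 lines and was called lower in 5 of them. TPM3 gives rise to short isoforms found in most non-muscle cells. In HCT116 it had 471, 473, 487 and 475 CPM with 2-MiCit, against 565, 580, 560 and 601 CPM in control (-0.29 ± 0.042). In SW1417 it had 501, 508, 503 and 518 CPM with 2-MiCit, against 564, 566, 571 and 565 CPM in control (-0.16 ± 0.020). In SKCO1 it had 453, 481, 483 and 481 CPM with 2-MiCit, against 523, 536, 531 and 531 CPM in control (-0.15 ± 0.023). None of these 3 lines had overlapping groups, and each call held in every alternative fit tried for it.

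TPM3 was called lower with less margin in LoVo and HT29. In LoVo it had 409, 419, 434 and 429.5 CPM with 2-MiCit, against 491, 494, 503 and 490.5 CPM in control (-0.24 ± 0.047). The LoVo groups were clearly apart, yet the call was lost without any one of the 4 2-MiCit libraries or of control replicates 2 and 3, with log2 fold changes of -0.25 to -0.22, and was kept without control replicate 4 (-0.24). In HT29 it had 634, 636, 616 and 614 CPM with 2-MiCit, against 702, 698, 693 and 644 CPM in control (-0.13 ± 0.035). That call was lost without 2-MiCit replicate 1, 3 or 4 or control replicate 1, 2 or 3, each left out alone (-0.14 to -0.12), without a filter on low counts and with the authors' own scaling. DLD1 (-0.098 ± 0.068, no overlap) and SW948 (-0.049 ± 0.064, overlap) were not called, and TPM3 was at -0.11 and -0.069 in them without the library that stands apart.

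TPM1 and TPM4 were called higher with 2-MiCit in HCT116 and lower in SW1417. TPM1 encodes alpha-tropomyosin, whose long isoforms are found on stress fibres. In HCT116 it had 41.4, 45.2, 45.3 and 41.9 CPM with 2-MiCit, against 33.3, 33.4, 33.6 and 33.9 CPM in control (0.35 ± 0.055, 1.28-fold). In SW1417 it had 251, 255, 255 and 252 CPM with 2-MiCit, against 268, 270, 267 and 262 CPM in control (-0.081 ± 0.0205). The groups of both lines were clear of each other. The SW1417 call was lost without 2-MiCit replicate 1, 2 or 3 or control replicate 1, 2 or 3, each left out alone (-0.085 to -0.073), with the length trend removed (-0.067), with 1 fit over all lines of the table and with the authors' own scaling. In DLD1, TPM1 had 304, 314, 311 and 325 CPM with 2-MiCit, against 361, 352, 338 and 363 CPM in control (-0.17 ± 0.064). Those groups did not overlap. TPM1 was not called in DLD1 by the edgeR fit of that line, but was called lower by DESeq2 and by 1 edgeR fit over all lines of the table. Its log2 fold change there was -0.16 without control replicate 1 and 0.0074 with the length trend removed.

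TPM4, counted over all its transcripts, had 484, 507, 509 and 513 CPM with 2-MiCit in HCT116, against 412, 461, 446 and 448 CPM in control (0.17 ± 0.047). This call was lost without 2-MiCit replicate 2 (0.16) or 4 (0.16), each left out alone, and with 1 fit over all lines of the table (0.19). In SW1417 it had 619, 610.5, 626 and 619 CPM with 2-MiCit, against 692, 697, 689 and 652 CPM in control (-0.15 ± 0.0225). Every treated library was above every control in HCT116 and below every control in SW1417. In DLD1 the TPM4 control value of replicate 1 was 566 CPM and the other 3 were 732, 770 and 778 CPM, so this library was the lowest of its group here and the highest for the thymosins.

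TPM2 was not called in any line. In HCT116, where it is abundant, it had 411, 355, 476 and 352 CPM with 2-MiCit, against 477, 406, 441 and 401 CPM in control (-0.13 ± 0.10). The groups overlapped, with 2-MiCit replicate 3 the highest of its group. Replicate numbers were taken to pair the HCT116 libraries, although the labels state no pairing. With the replicate number as a block TPM2 was called lower (-0.14), as it was without 2-MiCit replicate 3 (-0.24). With the length trend removed it was at -0.064 and not called. In HT29 it had 56.5, 56.3, 56.0 and 57.5 CPM with 2-MiCit, against 51.0, 54.99, 50.9 and 53.4 CPM in control. The HT29 groups did not overlap, and TPM2 was not called there (0.11 ± 0.040). In the other 5 lines it stayed at or below 10.1 CPM.

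With these changes the tropomyosin make-up of HCT116 differed between groups. TPM3 held 31.8% ± 1.53 with 2-MiCit and 36.2% ± 1.58 in control, TPM4 24.1% ± 1.60 with 2-MiCit and 19.9% ± 1.24 in control, and TPM1 4.66% ± 0.285 with 2-MiCit and 3.39% ± 0.0745 in control (SD, n = 4). The groups of each of these 3 shares were apart. The summed level itself was 1659 ± 55.3 with 2-MiCit and 1657 ± 32.4 in control. In SW1417, where TPM1, TPM3 and TPM4 were all lower, the summed level was 1345 ± 4.89 with 2-MiCit and 1459 ± 8.82 in control.

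By the edgeR fits per line, the myosin light chain genes were called in HCT116 alone, and both were higher. MYL9 had 114, 114, 125 and 116 CPM with 2-MiCit in HCT116, against 66.3, 68.4, 70.5 and 60.1 CPM in control. The groups were far apart, and its log2 fold change of 0.80 ± 0.061 (1.74-fold) was the largest of the 10 genes in any line. MYL12A had 232, 211, 233 and 198 CPM with 2-MiCit in HCT116, against 191, 188, 184 and 176 CPM in control (0.22 ± 0.061), also without overlap. The MYL12A call was lost without 2-MiCit replicate 1 (0.19).

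Elsewhere MYL9 was scarce. SKCO1 had 12.6, 13.4, 16.1 and 14.5 CPM with 2-MiCit, against 14.1, 14.3, 15.8 and 14.6 CPM in control (-0.047 ± 0.068). DLD1, LoVo, SW948 and SW1417 stayed at or below 4.5 CPM and were not called. In HT29 MYL9 was too low to be tested, with 0.375, 0.259, 0.302 and 0.463 CPM with 2-MiCit, against 0.153, 0.242, 0.173 and 0.231 CPM in control. MYL12A was not called outside HCT116 by the edgeR fits per line, where its log2 fold changes ran from -0.18 ± 0.12 in DLD1 to 0.11 ± 0.073 in SW948. Both ends rest on libraries that stand apart. Without them MYL12A was at -0.079 in DLD1, -0.059 in LoVo and 0.064 in SW948, and with the length trend removed the signs turned, to 0.040 in DLD1 and -0.049 in SW948. Other fits called MYL12A lower in the deeper lines: DESeq2 in SW1417, the replicate block in HT29 and SKCO1, and 1 fit over all lines of the table in HT29. It was also called lower in SKCO1 without 2-MiCit replicate 3 (-0.075) and in SW1417 without control replicate 4 (-0.11).

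Line-to-line differences in the response were tested through the interaction terms of 1 edgeR fit per table. Among HCT116, DLD1, LoVo and SW948, 5 of the 10 genes were called (TPM1, TPM3, TMSB4X, MYL9 and MYL12A), beside 18% of all genes. Among HT29, SKCO1 and SW1417, 0 of 10 were called by this test, beside 5.49% of all genes, and 3 had an unadjusted p below 0.05. These counts too use the contrasts on which the genes were picked. Over all genes the first test called 2837 and the second 884, and without the libraries of 1 replicate number these fell to as few as 670 (replicate 2) and 176 (replicate 3).

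The other genes of actin regulation were described from lists of 59 genes, of which 56 were in the tables. Over all lines, 374 pairs of gene and line were tested with edgeR's quasi-likelihood test, and 21 were higher and 61 lower with 2-MiCit. In HCT116 13 rose and 10 fell of 53 tested, where 19% of all genes rose and 18% fell. With the replicate number as a block, taken to pair the HCT116 libraries, 20 rose and 14 fell. Over all 13834 genes tested that fit called 3674 higher and 3348 lower, against 2635 and 2489 without the block. In LoVo 3 rose and 1 fell of 54 (1.59% and 0.702% of all genes), in SKCO1 4 rose and 24 fell of 54 (8.1% and 10.8%), in SW1417 0 rose and 17 fell of 53 (2.94% and 4.05%), and in HT29 1 rose and 9 fell of 53 (4.65% and 3.02%). None of 55 passed in DLD1 and none of 52 in SW948. At an unadjusted p below 0.05 there were 10 higher and 6 lower in DLD1 and 0 higher and 4 lower in SW948. Over all genes these were 1227 and 1171 of 13551 in DLD1 and 479 and 409 of 13334 in SW948. DESeq2 called 3 in DLD1, beside 345 higher and 142 lower over all genes, and 0 in SW948. For SW1417, 4 were higher at an unadjusted p below 0.05, and DESeq2 called 1 higher. With the authors' own scaling the calls numbered 2 in HT29, 12 in SKCO1 and 5 in SW1417. Calls over all genes fell with that scaling too. They were 294 higher and 181 lower of 13887 in HT29, 430 and 767 of 14651 in SKCO1, and 77 and 133 of 14089 in SW1417. Single libraries also decided the HT29 count, which was 2 when any of 3 libraries was left out (replicate 3 of 2-MiCit, or 1 or 3 of the controls). Over all genes HT29 then had 353 higher and 179 lower, 323 and 175, and 299 and 153, in that order. With all libraries it had 646 and 419. Of 57 pairs of named gene and line, 19 kept the call in every alternative fit and none changed direction. The regulators had a median log2 fold change of 0.06 for HCT116 and 0.0059 for DLD1, and of -0.03 for SW948, -0.05 for LoVo, -0.07 for HT29, -0.08 for SKCO1 and -0.08 for SW1417.

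**Figure D5:**
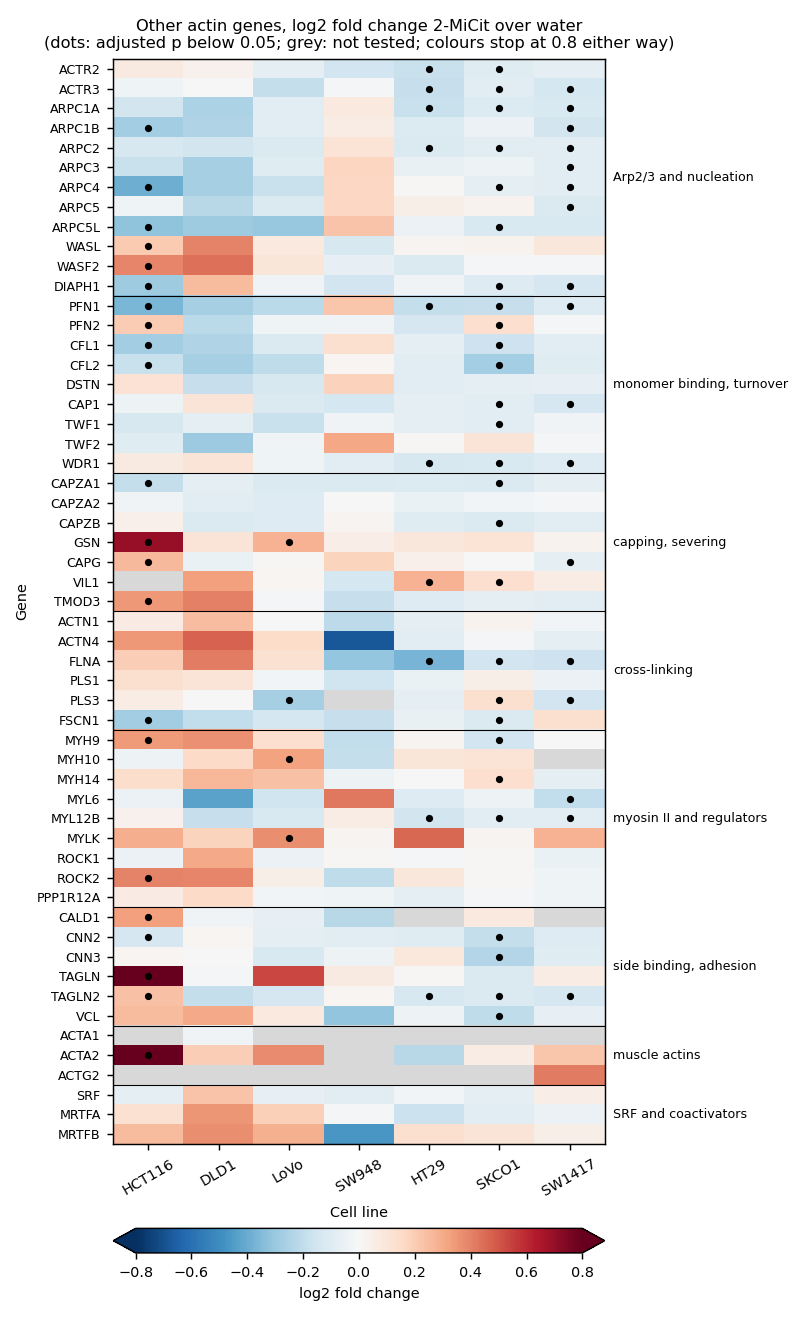
Log2 fold change (2-MiCit over water, colour) of 55 other actin genes (rows, by list) in the 7 lines (columns); dots mark an adjusted p below 0.05 and grey cells were not tested. Colours stop at 0.8 in either direction, which TAGLN (2.07) and ACTA2 (1.63) exceed in HCT116. In the nucleation list 4 of 12 genes tested were called lower in HT29, 7 of 12 in SKCO1 and 8 of 12 in SW1417. Over all the listed genes tested, 9 of 53, 24 of 54 and 17 of 53 were called lower in the same lines.

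The 2 genes with the largest changes are best known from smooth muscle, and both rose in HCT116. TAGLN, which encodes the actin-bundling protein transgelin, had 18.6, 13.5, 16.9 and 15.9 CPM with 2-MiCit, against 5.53, 2.80, 3.39 and 3.62 CPM in control. It rose by 2.07 ± 0.19 on the log2 scale (edgeR adjusted p = 5.4e-05). ACTA2, the smooth muscle alpha-actin gene, had 9.73, 8.20, 8.71 and 8.55 CPM with 2-MiCit, against 2.60, 2.59, 3.51 and 2.49 CPM in control (1.63 ± 0.14, edgeR adjusted p = 2.9e-05). Both genes were clear of their controls at a level far below that of ACTB and ACTG1. CALD1 (caldesmon, which binds tropomyosin and actin) rose by 0.33 ± 0.049 (adjusted p = 0.00064). GSN (gelsolin, which severs filaments) rose by 0.70 ± 0.069 (adjusted p = 6.3e-05). These 4 calls held in all 15 alternative fits tried for each.

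Of the smooth muscle markers, SYNPO2 was higher in HCT116 (1.21 CPM with 2-MiCit and 0.522 CPM in control; edgeR adjusted p = 0.0177). The summed level of the 3 such markers measured was 4.11 to 4.70 CPM with 2-MiCit and 2.40 to 4.2 CPM in control HCT116, with MYH11 (0.741 CPM with 2-MiCit and 0.620 CPM in control) and DES (2.49 CPM with 2-MiCit and 2.14 CPM in control) not called. Of 7 epithelial markers, 6 were tested in HCT116: CDH1, KRT8 and KRT18 were higher and EPCAM and CDX2 lower. The epithelial sum was 5970 to 7008 CPM with 2-MiCit and 4518 to 5033 CPM in control. The part of these markers in the HCT116 changes was not tested.

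Genes for the nucleation of filaments were mostly lower where they passed. Of the 9 Arp2/3 subunit genes (the complex that starts branched filaments), a group set out after the values were seen, 3 fell in HCT116 (18% of all genes fell), 4 in HT29 (3.02%), 6 in SKCO1 (10.8%) and 7 in SW1417 (4.05%), and none rose in any line by edgeR's test or was higher at an unadjusted p below 0.05. As the group was picked on these values, its counts show nothing particular to it. ACTR3 fell by 0.18 ± 0.046 in HT29 (adjusted p = 0.0326), 0.089 ± 0.027 in SKCO1 (adjusted p = 0.0335) and 0.14 ± 0.021 in SW1417 (adjusted p = 0.00125). ARPC1A, ARPC2 and WDR1 (a cofactor of cofilin) fell in the same 3 lines. ARPC4 fell by 0.39 ± 0.072 in HCT116 (adjusted p = 0.00204), and also in SKCO1 and SW1417 by 0.077 ± 0.023 and 0.088 ± 0.024. DIAPH1, a formin that elongates unbranched filaments, fell by 0.28 ± 0.071 in HCT116, 0.11 ± 0.022 in SKCO1 and 0.13 ± 0.020 in SW1417 (adjusted p between 0.00137 and 0.0107). ARPC5L fell in HCT116 by 0.32 ± 0.079 (adjusted p = 0.00917). With 1 edgeR fit over all lines of the table, the HCT116 calls of DIAPH1 (adjusted p = 0.0986) and ARPC5L (0.0521) were lost.

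Among monomer-binding genes, PFN1, which encodes the profilin that feeds actin to growing ends, fell in 4 lines. It fell by 0.37 ± 0.087 in HCT116, 0.19 ± 0.052 in HT29, 0.19 ± 0.036 in SKCO1 and 0.10 ± 0.024 in SW1417 (edgeR adjusted p between 0.00283 and 0.048). The HCT116 call of PFN1 was lost with 1 edgeR fit over all lines of the table (adjusted p = 0.0677). Its relative PFN2 rose by 0.13 ± 0.042 in SKCO1 (adjusted p = 0.0366), where CFL2, a cofilin, fell by 0.27 ± 0.046 (adjusted p = 0.000928).

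The genes for cross-linking and capping differed between lines. FLNA (filamin A, which ties filaments into networks) fell by 0.37 ± 0.049 in HT29, 0.15 ± 0.026 in SKCO1 and 0.16 ± 0.025 in SW1417, and the size of this change differed between these 3 lines (interaction adjusted p = 0.00985). VIL1, the brush border bundler, rose by 0.28 ± 0.045 in HT29 and 0.13 ± 0.025 in SKCO1 (adjusted p = 0.00418 and 0.00217; interaction adjusted p = 0.0264). PLS3 (a plastin) rose by 0.13 ± 0.026 in SKCO1 and fell by 0.15 ± 0.026 in SW1417 (interaction adjusted p = 0.00123). With the authors' own scaling both PLS3 calls were lost (edgeR adjusted p = 0.145 in SKCO1 and 0.528 in SW1417). Both VIL1 calls were lost with it too (edgeR adjusted p = 0.0586 in HT29 and 0.0762 in SKCO1). FSCN1, the filopodial bundler fascin, fell by 0.28 ± 0.057 in HCT116 (adjusted p = 0.00357). That call was lost with 1 edgeR fit over all lines of the table (adjusted p = 0.196). VCL (vinculin, at adhesions) fell by 0.20 ± 0.024 in SKCO1 (adjusted p = 7.5e-05).

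Partners of the light chains moved in several directions. MYH9, the main non-muscle myosin II heavy chain gene, rose by 0.34 ± 0.095 in HCT116 (adjusted p = 0.0177) and fell by 0.15 ± 0.024 in SKCO1 (adjusted p = 0.000558). Its HCT116 call was lost with 1 edgeR fit over all lines of the table and without 2-MiCit replicate 2. MYH14 rose by 0.14 ± 0.028 in SKCO1 (adjusted p = 0.00328). MYL12B, the close copy of MYL12A, fell in HT29, SKCO1 and SW1417 by 0.15 ± 0.038, 0.088 ± 0.028 and 0.086 ± 0.024 (adjusted p between 0.0389 and 0.0419). MYL6, the essential light chain gene, fell by 0.20 ± 0.0245 in SW1417 (adjusted p = 0.000275). In LoVo, MYH10 (0.32 ± 0.066), MYLK (0.37 ± 0.083) and GSN (0.28 ± 0.062) rose and PLS3 fell by 0.27 ± 0.058 (adjusted p between 0.037 and 0.0447). Each of these 4 LoVo calls was lost without at least 6 of the 8 libraries, each left out alone. The same held without 4 to 7 libraries for ACTR3, ARPC1A, ARPC2, WDR1, PFN1, MYL12B and TAGLN2 in HT29, without 4 to 6 for ACTR3, ARPC4, PFN2 and MYL12B in SKCO1, and without 5 to 7 for ARPC2, ARPC4, PFN1 and MYL12B in SW1417. TAGLN2 (transgelin-2) rose by 0.23 ± 0.056 in HCT116 and fell by 0.13 ± 0.034 in HT29, 0.12 ± 0.028 in SKCO1 and 0.14 ± 0.020 in SW1417, and its response differed among HCT116, DLD1, LoVo and SW948 (interaction adjusted p = 0.00281).

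Serum response factor (SRF) and its actin-sensing coactivators MRTFA and MRTFB were not called in any of the 7 lines, although the response of SRF differed among HCT116, DLD1, LoVo and SW948 (interaction adjusted p = 0.0414). SRF binds the CArG box, and members of the actin family are among its known targets. In RefSeq promoter entries (GRCh38.p14, 250 bases before a start, both strands searched) 8 of the 10 genes matched; ACTB and MYL9 had no entry. A CArG box was found in 2 of their 14 promoters (14.3%), in 9 of 94 regulator promoters (9.57%) and in 407 of 35116 promoters in all (1.16%). Both stretches of 30 bases are shown because ACTG1 was called lower and TPM4 higher in HCT116, with the box in capitals.
ACTG1 (chr17:81512874-81512903, minus strand, 94 bases before the start): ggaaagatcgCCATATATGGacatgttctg
TPM4 (chr19:16067355-16067384, plus strand, 173 bases before one of its starts): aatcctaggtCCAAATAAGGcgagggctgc
The letters TATAA, on either strand, were in 4 of the 14 promoters (28.6%) and in 18.9% of all promoters. A match describes the letters and does not show that a factor binds there.

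The genes whose pattern was most like that of the 10 were sought over the 32 and the 24 libraries, after the mean of its line was taken from each library. They were TAGLN2 (Pearson r 0.883 and 0.865), LSR (0.853 and 0.867), ANXA2 (0.851 and 0.85), C17orf49 (0.834 and 0.816) and TMEM14B (0.809 and 0.819), where libraries share a line and a treatment and differ in their length slopes. Among the 10 genes the same measure gave 0.911 for TPM3 with ACTB and 0.863 for TPM4 with TMSB4X over the 24 libraries of HT29, SKCO1 and SW1417. Over the 32 libraries of the other 4 lines the values were 0.509 and -0.336 for the same pairs. There, TMSB10 had 0.81 with TMSB4X, 0.718 with TPM2 and -0.75 with TPM4, which has a longer transcript.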

How the data were processed

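RNA was sequenced from 56 libraries. The authors deposited raw counts per gene in 2 tables, and normalized counts (a coverage-type signal) in 2 further tables. In the first normalized table each count was divided by 1 factor per library, and in the second the divisor was not the same for all genes of a library, as the deposited values show. The submitters' processing notes name bcl2fastq 2.20.0, Trimmomatic 0.39, Salmon 1.5.0, DESeq2 and GRCh38.p13. Salmon shares reads among similar transcripts, so close copies can exchange counts.

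The raw counts were tested per line in R 4.3.3 with edgeR 4.0.16 (filterByExpr, TMM scaling, robust quasi-likelihood F test, Benjamini-Hochberg adjusted p below 0.05 over all genes tested), which builds on limma 3.58.1. CPM levels use TMM factors of a whole table, while fold changes use those of the line. Length-scaled levels divide counts by the median transcript length in GENCODE 29; 1156 of 16485 and 1186 of 16454 identifiers had no match there. DESeq2 1.42.0, other scalings and filters, a replicate block, 1 fit per table, removal of the length trend and leaving out each library were alternatives. In HCT116 same-numbered libraries deviated together (correlations 0.364, 0.107, 0.11 and 0.286), so the numbers were taken to pair them. The scripts were tested on simulated data.

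The 10 genes, the lists and the tests were chosen with earlier results of these data known. Of the other actin genes, those named are, per line, up to 4 called in each direction with the smallest p and each called in the same direction in at least 3 lines. Values of these genes in further lines, and SRF with its coactivators, were added after their values were seen. 1 listed gene is counted but not reported here.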

Additional observations from a re-analysis of the deposited data

Results flagged for a closer look

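Among 140 groups of 4 libraries (10 genes in 14 groups), 9 held a library far from the other 3, where chance gives about 1 in 20. DLD1 control replicate 1 was the highest of its group for TMSB10 (2232 CPM) and TPM2 (6.31 CPM) and the lowest for ACTG1 (3434 CPM). SW948 2-MiCit replicate 2 was the highest for TMSB10 (4058 CPM), and LoVo control replicate 4 the highest for MYL9 (1.46 CPM). These 3 libraries have the most negative length slopes (-0.29, -0.23 and -0.12 per doubling). In SKCO1, 2-MiCit replicate 3 was the highest for TMSB4X (727 CPM) and 2-MiCit replicate 1 the lowest for TPM3 (453 CPM). In HT29, control replicate 4 was the lowest for TPM3 (644 CPM) and control replicate 2 the lowest for TPM4 (346 CPM).

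Every 2-MiCit library was above every control for TPM1 in HCT116 (log2 fold change 0.35) and below every control in DLD1 (-0.17). The difference between this pair of lines alone was not tested.

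The response of 6 named actin genes differed among HCT116, DLD1, LoVo and SW948 by edgeR's interaction test: TAGLN (adjusted p = 4.25e-05), GSN (4.71e-05), ACTA2 (0.000605), TAGLN2 (0.00281), ARPC5L (0.0374) and ARPC4 (0.041). The response of 4 differed among HT29, SKCO1 and SW1417 by the same edgeR test: PLS3 (adjusted p = 0.00123), FLNA (0.00985), VIL1 (0.0264) and PFN2 (0.0374).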

How the results depend on the processing

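Of 22 called pairs of gene and line among the 10 genes, 14 kept the call in every alternative, and of 47 not called, 35 stayed so. With 1 fit per table, regulators called numbered 22 in HT29, 10 each in HCT116, DLD1 and SW1417, and 1 in LoVo. The HCT116 regulators were 8 higher and 2 lower in that fit, against 13 and 10 in the fit of the line alone. Genes of the set called were 2 in DLD1 and 7 in HT29. Over all genes that fit called 1222 higher and 1270 lower of 16090 in HT29, and 210 and 227 in SW1417. Of 15800 genes it called 2322 and 1713 in HCT116, 729 and 621 in DLD1 and 120 and 82 in LoVo. DESeq2 called 1 of the set and 3 regulators in DLD1, and 2 and 8 in LoVo. Over all genes it called 345 higher and 142 lower in DLD1 and 483 and 490 in LoVo. Without a filter on low counts LoVo had 2 regulators, beside 177 higher and 65 lower of 15999 genes. With the length trend removed the median of the set was -0.004 in DLD1, -0.063 in LoVo and -0.102 in SW1417. With the authors' own scaling, an alternative chosen after seeing the data, HT29 had 1 of the set and 2 regulators, SKCO1 12 regulators, and SW1417 5 regulators and a median of -0.105.

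Leaving out 1 library at a time gave a median of -0.244 to -0.103 in DLD1 and -0.021 to 0.125 in SW948, 0 to 1 of the set, 0 to 8 regulators and a median of -0.16 to -0.045 in LoVo, 1 to 3 of the set and 2 to 9 regulators in HT29, and 11 to 19 regulators and a median of -0.135 to -0.098 in SW1417. Calls over all genes shifted as well. LoVo had 32 higher and 4 lower without control replicate 3, and 528 and 540 without control replicate 1. HT29 had 299 and 153 without control replicate 3, and 570 and 453 without control replicate 4. SW1417 had 187 and 303 without 2-MiCit replicate 3, and 460 and 670 without 2-MiCit replicate 4. Without 1 replicate number, the genes whose response differed between lines numbered 670 to 2240 among the first 4 lines and 176 to 652 among the other 3.

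The replicate block gave 1638 and 1569 such genes. It called 1 regulator in LoVo and 17 in HT29, and 20 regulators higher and 14 lower in HCT116. Of the set it called 8 in HCT116, 6 in HT29 and 6 in SKCO1. Over all genes it called 3674 higher and 3348 lower of 13834 in HCT116 and 1150 and 1034 of 13887 in HT29. It called 1322 and 1853 of 14651 in SKCO1 and 189 and 102 of 13677 in LoVo. Pairs with a correlation over 0.1 numbered 4 of 4 in HCT116, where the lowest was 0.107. They numbered 0 in DLD1, 1 in LoVo, 1 in SW948, 1 in HT29, 0 in SKCO1 and 0 in SW1417. 2-MiCit libraries that correlated best with their own number were 3, 0, 1, 1, 3, 3 and 0 in the same order of lines. This second measure does not set HCT116 apart from HT29 and SKCO1, so the pairing taken for HCT116 is not settled. The causes of these shifts were not tested. MYL9 was at or below 0.463 CPM in HT29 and was not tested there.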

Other observations

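In the authors' normalized table for HT29, SKCO1 and SW1417 the ratio of raw to normalized count was divided by its median over the well-counted genes of the library. For TPM1 this relative ratio was 0.933 with 2-MiCit and 0.928 in control HT29, and 1.14 with 2-MiCit and 1.14 in control SW1417. In SKCO1 it was 0.941 with 2-MiCit and 0.941 in control. The summed actin level (ACTB and ACTG1, length-scaled) was 5863 ± 279 with 2-MiCit and 7000 ± 228 in control SKCO1 (SD, n = 4). The summed level of both myosin light chain genes was 570 ± 11.7 with 2-MiCit and 423 ± 6.96 in control HCT116, of which MYL9 held 20.9% ± 1.12 with 2-MiCit and 15.0% ± 0.657 in control.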
